A study of Mus musculus with 6 samples.

Results

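The genes described here encode receptors and ligands of 2 neurotrophic pathways, those of glial cell line-derived neurotrophic factor (GDNF) and of the neurotrophins. They are Gfra1, Gfra2, Gdnf, Ret, Ngfr, Ntrk2, Ntrk3, Bdnf and Ncam1, 9 of the 55401 genes listed for each library. The set was chosen by measured values, because Gfra1 was lower in the lines labelled Rag1KO than in those labelled WT, so the difference between these groups is given for the members as a description, with standard errors but no p-value or call. The libraries are from 6 cancer cell lines, grown in DMEM with serum from dissociated primary tumours of C57BL/6 mice. Of these lines, 3 came from mice of the genotype Rag1KO (replicates 1, 3 and 7) and 3 from mice labelled WT (replicates 2, 4 and 6). Without the recombinase subunit RAG1 a mouse cannot rearrange antigen receptor genes and has no mature T or B lymphocytes. The series contrasts tumour cells from immunocompromised and from immunocompetent hosts. The tumour type, the hosts' sex and age, and whether each line came from a separate animal are not given in the sources used here, so the errors and p-values below measure only the spread between these libraries, which may in part be technical.

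GDNF is a secreted protein that binds the membrane-anchored receptor GFRα1, and this pair activates the tyrosine kinase RET. The related receptor GFRα2 prefers neurturin, and the adhesion molecule NCAM can serve as an alternative signalling partner of GFRα1. Neurotrophins such as BDNF act through Trk tyrosine kinases and through the p75 receptor encoded by Ngfr, which is known as a marker of neural crest and Schwann cells. In tumours, these factors are best known for the growth of cancer cells along nerves and for RET as an oncogene.

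The sequence beside a RefSeq transcription start is shown for Gfra1, the receptor on which the set was chosen, and for Gdnf, its ligand. Both are from RefSeq on GRCm38.p6, 5′ to 3′ on the strand of the gene, and are cut to the bases directly before the RefSeq start that lie in no exon of the GENCODE M21 annotation. The Gfra1 stretch is chr19:58455399-58455460 on the minus strand, and the Gdnf stretch is chr15:7809798-7810047 on the plus strand. In GENCODE M21 the Gfra1 stretch lies inside the gene, between annotated exons, and the Gdnf stretch lies upstream of the gene.
Gfra1: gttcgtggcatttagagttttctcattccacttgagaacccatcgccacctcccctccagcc
Gdnf: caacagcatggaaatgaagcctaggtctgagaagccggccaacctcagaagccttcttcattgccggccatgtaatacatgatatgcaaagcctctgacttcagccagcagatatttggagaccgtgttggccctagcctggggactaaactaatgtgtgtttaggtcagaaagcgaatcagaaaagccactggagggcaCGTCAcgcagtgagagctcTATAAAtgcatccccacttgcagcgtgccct
Capitals in the Gdnf stretch mark, from left to right, the letters of the short cAMP response element motif (TGACG, here on the opposite strand, 50 to 46 bases before the start) and of a TATA box (TATAAA, 31 to 26 bases before the start). Both strands were searched for these motifs, for the GC box GGGCGG and for the E box CANNTG, and no 2 of the matches overlapped. Among all 32851 RefSeq windows of 250 bases, 12.4% held TATAAA, 17.8% held TGACG, 32.7% held GGGCGG and 66.2% held CANNTG. The Gdnf stretch also held 1 CANNTG and no GGGCGG. The Gfra1 stretch of 62 bases held 1 CANNTG, as did 21.9% of windows of that length, and none of the other 3 motifs, which 4.03% (TATAAA), 7.26% (TGACG) and 19.0% (GGGCGG) of such windows held. Base composition was close, with 53.2% G and C and 2 CpG in the Gfra1 stretch, and 50.8% G and C and 7 CpG in the Gdnf stretch. Windows were found for 5 of the 9 members, and none was listed for Gfra2, Ret, Ntrk3 and Ncam1.

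Libraries held 55409583 to 62998051 reads, and the deposited values are reads divided by 1 size factor per library, called normalized counts below. Where a gene has 0 reads, up to 3 are allowed for, equal to 2.64 to 3.48 normalized counts, which covers counting error only. Rag1 itself had 39.3, 126 and 177 normalized counts in the lines labelled Rag1KO and 0 reads in every line labelled WT, against the direction of the labels. The part of Rag1 that is deleted is not given in the sources used here, and the groups are therefore called by their labels throughout. Differences are log2 fold changes of Rag1KO minus WT on the log2(value + 1) scale, so that a positive value means higher in the lines labelled Rag1KO, and were fitted with limma over 16137 genes. Of these genes, 0.00620% passed an adjusted p of 0.05, which was 1 gene, Eif2s3y on the Y chromosome, and edgeR's quasi-likelihood test called 0. Unadjusted p-values under 0.05 were found for 754 genes by limma, for 717 by edgeR and for 1055 by DESeq2. DESeq2 called 65 genes, or 0.410% of the 15863 to which it gave an adjusted p. Xist had 15.3 normalized counts or less in the 3 Rag1KO lines and in WT replicate 6, and 59776 and 32733 in the other WT lines. Uty and Kdm5d on the Y chromosome were expressed in those 4 lines, but Eif2s3y had 1438 to 2944 normalized counts in the Rag1KO lines and 0 reads in WT replicate 6. The groups thus also differ in sex-linked expression, whose part in the results was not tested. WT replicate 6 stood apart from the other 5 lines. It had 206 normalized counts of the collagen gene Col1a1, against 478322 or more in each of the others, and 10210 of the neurofilament gene Nefl, against 186 or less. Other collagen genes were well expressed there. Col1a2 was at 151806, against 434020 or more in the others, and Col3a1 at 126015, against 105461 to 350041. Differences of members that move with this library are given with and without it.

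Gfra1 (ENSMUSG00000025089.15, chr19:58235604-58455909, minus strand, mm10) encodes the co-receptor that binds GDNF. It had 1576, 388 and 537 normalized counts in Rag1KO replicates 1, 3 and 7, against 3457, 4486 and 9599 in WT replicates 2, 4 and 6. Every line labelled Rag1KO lay below every line labelled WT. The means were 834 ± 647 normalized counts in Rag1KO lines and 5848 ± 3290 in WT lines (SD, n = 3 each). On the log2 scale the difference was −2.94 (SE 0.63), a level 7.67-fold lower in Rag1KO lines. With each library left out in turn it lay between −3.53 without Rag1KO replicate 1 and −2.51 without WT replicate 6. Of the 8 members tested, Gfra1 was the only one whose groups did not overlap, and 12.1% of all genes tested had groups that did not overlap, 6.49% with the lower values in Rag1KO lines. Since this contrast chose the set, nothing is read from these counts. RNA from whole cultures cannot tell fewer cells that express a gene from less RNA of it per cell.

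**Figure D1:**
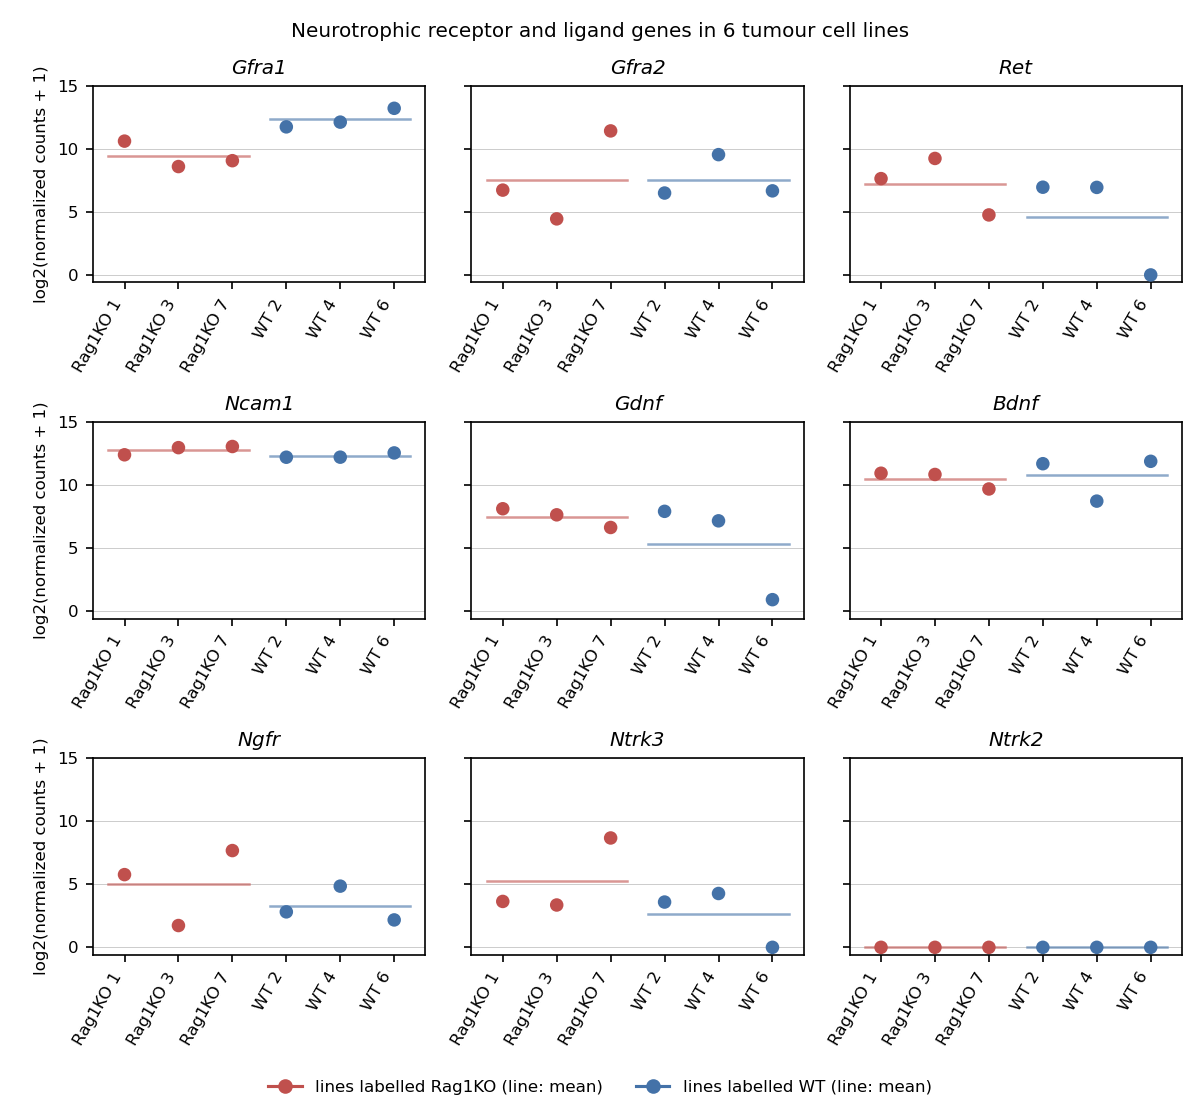
Level of each of the 9 genes in each line, as log2 of the normalized count plus 1, with lines labelled Rag1KO on the left of each panel and lines labelled WT on the right; points are libraries and horizontal lines are group means (n = 3 each). Gfra1 is the only panel whose groups do not overlap, Rag1KO replicate 7 stands highest for Gfra2, Ngfr and Ntrk3, WT replicate 6 is at or near 0 for Ret, Gdnf and Ntrk3, and Ntrk2 is at 0 in all 6 lines.

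Gfra2 (chr14:70890120-70979838, plus strand) encodes the co-receptor that prefers neurturin. It had 105, 20.9 and 2767 normalized counts in Rag1KO replicates 1, 3 and 7, against 89.6, 749 and 101 in WT replicates 2, 4 and 6. The highest and the lowest of the 6 lines both carried the Rag1KO label, 133-fold apart, and Rag1KO replicate 7 was 3.69-fold above the next line. Its log2 fold change was −0.04 (SE 1.89), and −1.98 without Rag1KO replicate 7. It was 1.51 without Rag1KO replicate 3, and edgeR and DESeq2 both gave 1.63 on the recovered reads.

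Levels of the GFRα genes were compared within a line per kilobase of annotated exon, since the genes differ in length. Gfra1 made up 74.9%, 38.7% and 9.94% of the summed level of Gfra1 to Gfra4 in Rag1KO replicates 1, 3 and 7, and 92.4%, 71.5% and 98.1% in WT replicates 2, 4 and 6. The most abundant gene of the family was Gfra1 in all 3 WT lines but differed between the Rag1KO lines. Gfra1 led in Rag1KO replicate 1, Gfra4 in replicate 3 at 58.1% and Gfra2 in replicate 7 at 79.3%. The Gfra1 level that chose the set enters these shares, so their split by group is not a separate result. The summed level was 384, 183 and 986 normalized counts per kilobase in the Rag1KO lines and 683, 1146 and 1786 in the WT lines. These groups overlapped, because Gfra2 brought Rag1KO replicate 7 above WT replicate 2. Gfra3, the artemin receptor, was at 14.5 normalized counts or less in every line and was not tested.

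**Figure D2:**
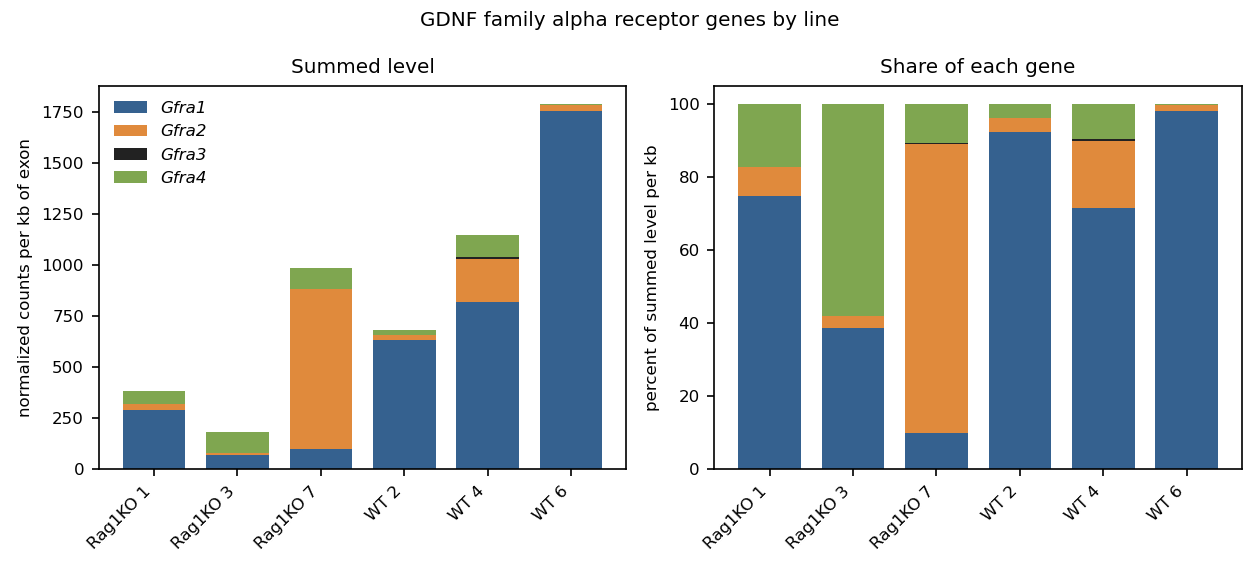
Summed level of Gfra1, Gfra2, Gfra3 and Gfra4 in normalized counts per kilobase of exon (left) and the percent of that sum from each gene (right), for the lines labelled Rag1KO and then the lines labelled WT. Gfra1 makes up 71.5% to 98.1% of the sum in the WT lines, while Gfra1, Gfra4 and Gfra2 each lead in 1 of the Rag1KO lines.

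Ret (chr6:118151745-118197718, minus strand) encodes the receptor tyrosine kinase that the GDNF and GFRα pair activates. It had 199, 607 and 26.2 normalized counts in Rag1KO replicates 1, 3 and 7, against 124, 123 and 0 in WT replicates 2, 4 and 6. Rag1KO replicate 3 was 3.05-fold above the next line, and the other Rag1KO lines lay on either side of WT replicates 2 and 4. Ret had the widest spread among the members, with an SD within groups of 3.26 on the log2 scale. limma gave a log2 fold change of 2.58 (SE 2.21), and of 0.26 without WT replicate 6, whose 0 reads allow up to 2.64 normalized counts.

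The line with the most Gfra1, WT replicate 6, was also the line in which Ret was not detected. Per kilobase of exon, Gfra1 stood to Ret at 9.77, 0.790 and 25.3 in Rag1KO replicates 1, 3 and 7, and at 34.5, 45.2 and at least 4491 in WT replicates 2, 4 and 6. The last is a lower bound, computed with Ret at its limit of 3 reads in that library. Rag1KO replicate 3 was the only line in which Ret exceeded Gfra1 per kilobase. These ratios contain the Gfra1 level that chose the set, so nothing is read from their split by group.

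Ncam1 (chr9:49502136-49798925, minus strand) encodes the neural cell adhesion molecule. It had 5449, 8078 and 8599 normalized counts in Rag1KO replicates 1, 3 and 7, against 4765, 4780 and 6044 in WT replicates 2, 4 and 6. Its level varied least of the members tested, by 1.80-fold over all 6 lines and with an SD within groups of 0.29 on the log2 scale. Its log2 fold change was 0.49 (SE 0.23, 95% interval −0.09 to 1.06), between 0.36 and 0.69 with each library left out in turn. The groups overlapped through Rag1KO replicate 1 and WT replicate 6. Per kilobase of exon, Ncam1 ranked first among the 9 genes in all 3 Rag1KO lines and second to Gfra1 in all 3 WT lines. The level of Gfra1 over that of Ncam1, per kilobase, was 0.458, 0.0760 and 0.0988 in Rag1KO lines and 1.15, 1.48 and 2.51 in WT lines. Both the ranks and this ratio contain the Gfra1 level that chose the set, so nothing is read from their split by group.

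Gdnf (chr15:7810846-7837575, plus strand), whose upstream sequence is given above, had 279, 199 and 98.8 normalized counts in Rag1KO replicates 1, 3 and 7, against 242, 143 and 0.880 in WT replicates 2, 4 and 6. The value in WT replicate 6 was 1 read, and both other WT lines lay within the range of the Rag1KO lines. A log2 fold change of 2.14 (SE 1.89) was fitted, which was −0.07 without WT replicate 6 and 0.59 with edgeR on all 6. WT replicate 6 thus had at most 1 read of the ligand and of the kinase beside the highest level of the co-receptor.

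Bdnf (chr2:109674700-109727007, plus strand) encodes brain-derived neurotrophic factor, the ligand of TrkB. It had 1975, 1845 and 829 normalized counts in Rag1KO replicates 1, 3 and 7, against 3336, 425 and 3807 in WT replicates 2, 4 and 6. The lines labelled WT held both the 2 highest values and the lowest, 8.96-fold from end to end. Fitted over all lines, the log2 fold change was −0.28 (SE 0.91, 95% interval −2.52 to 1.96), from −1.30 without WT replicate 4 to 0.28 without WT replicate 6. Ntrk2 (chr13:58806569-59133970, plus strand), the gene of TrkB, had 0 reads in all 6 lines. Bdnf was among the 4 most abundant members per kilobase in every line, while its Trk receptor was not detectable at this depth.

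Ngfr (chr11:95568818-95587735, minus strand) encodes the p75 receptor, which binds all neurotrophins. It had 53.7, 2.32 and 204 normalized counts in Rag1KO replicates 1, 3 and 7, against 6.04, 28.0 and 3.52 in WT replicates 2, 4 and 6. Rag1KO replicate 7 was 3.81-fold above the next line, and Rag1KO replicate 3, at 2 reads, was the lowest of all. The difference was 1.78 on the log2 scale (SE 1.64), and 0.47 without Rag1KO replicate 7.

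Ntrk3 (chr7:78175959-78738012, minus strand) encodes TrkC, the receptor of neurotrophin-3. It had 11.5, 9.27 and 410 normalized counts in Rag1KO replicates 1, 3 and 7, against 11.1, 18.3 and 0 in WT replicates 2, 4 and 6. Rag1KO replicate 7 was 22.3-fold above the next line, and the other 5 lines lay at 19 reads or fewer. Its log2 fold change was 2.61 (SE 1.83), and was 0.88 without Rag1KO replicate 7 and 1.29 without WT replicate 6. Neurotrophin-3 itself (Ntf3) was at 1 read in WT replicate 2 and at 0 in the other 5 lines.

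**Figure D3:**
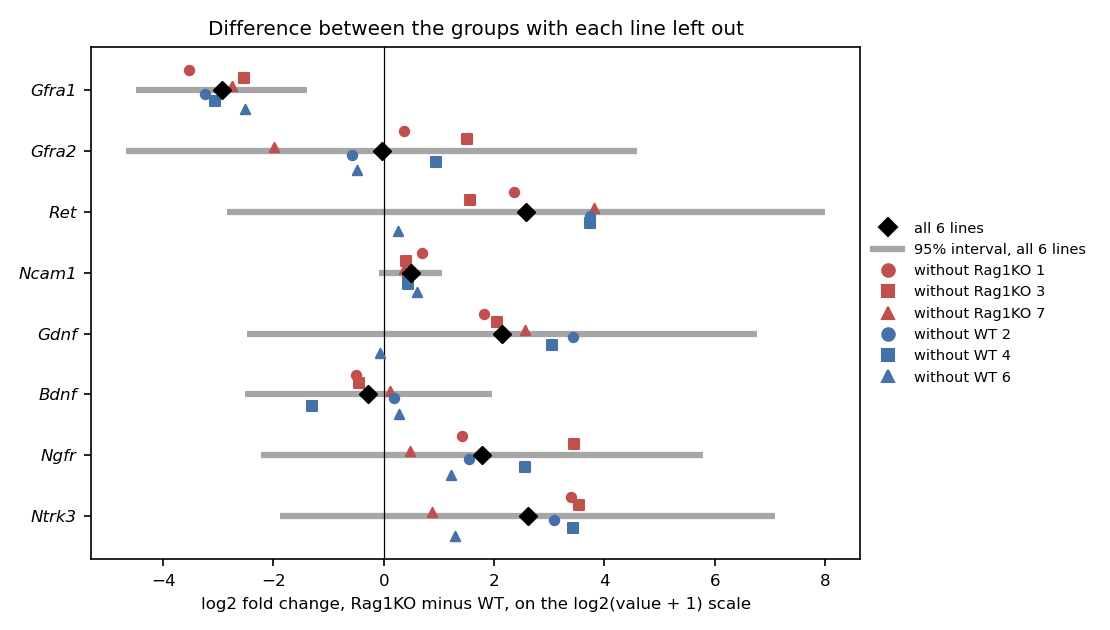
Log2 fold change of Rag1KO minus WT, on the log2(value + 1) scale, for the 8 members tested, with all 6 lines (diamond, with its 95% interval from limma as a grey bar) and with each line left out in turn (red for lines labelled Rag1KO, blue for lines labelled WT). Gfra1 stays between −3.53 and −2.51 and Ncam1 between 0.36 and 0.69, while Gfra2 reaches −1.98 without Rag1KO replicate 7 and Gdnf −0.07 without WT replicate 6. Since this contrast chose the set, whether an interval reaches 0 is not read as a test.

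The receptors Gfra2, Ngfr and Ntrk3 were each highest in Rag1KO replicate 7. This line was also the highest for 6 of 10 markers of Schwann cells and neural crest. Sox10, the transcription factor that defines these cells, was at 322.6 normalized counts there and at 0.966 or less in each of the other 5 lines. The cadherin gene Cdh19 was at 207 and 0 in the same comparison, and Erbb3, the neuregulin receptor of Schwann cells, at 331 and 40.6 or less. S100b, a calcium-binding protein gene, was at 327 normalized counts in Rag1KO replicate 7 and at 1.76 to 255 in the others. The summed level of the 10 markers was 528, 392 and 2001 normalized counts in Rag1KO replicates 1, 3 and 7, and 409, 1792 and 4413 in WT replicates 2, 4 and 6. The sums of WT replicates 4 and 6 were mostly 1 gene each, Mbp at 1648 and Tfap2a at 4206. The markers Foxd3 and Gfap were below 10 normalized counts in every line. Sorcs1, a sortilin-related receptor, was at 83.3 normalized counts in Rag1KO replicate 7 and had 0 reads in the other 5 lines. The part of these markers in the levels of Gfra2, Ngfr and Ntrk3 was not tested.

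**Figure D4:**
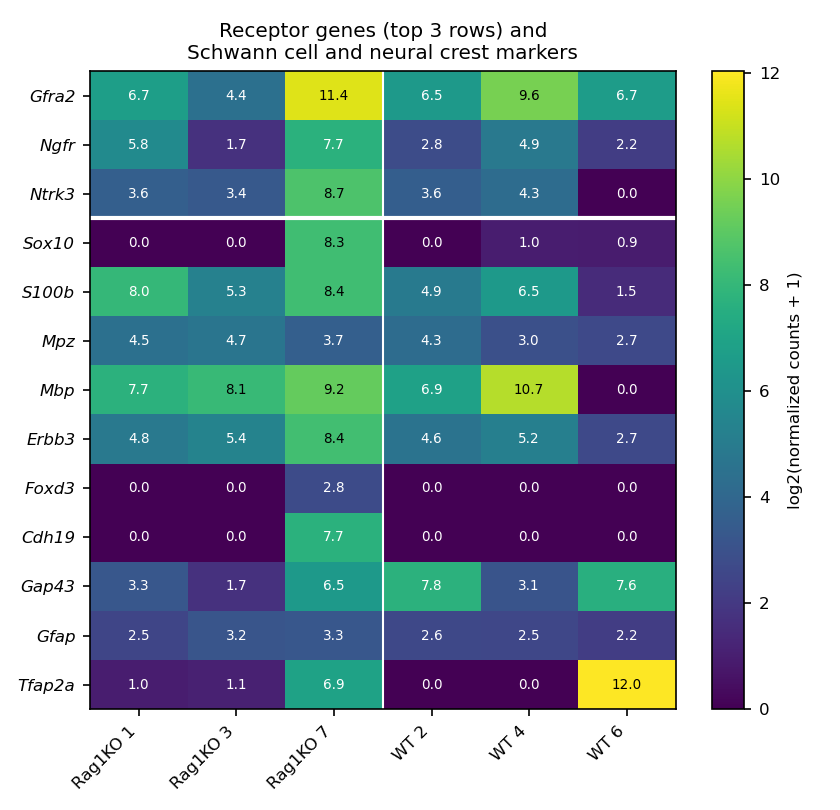
Level of Gfra2, Ngfr and Ntrk3 (top 3 rows) and of the 10 Schwann cell and neural crest markers in each line, as log2 of the normalized count plus 1 (colour and printed value), lines labelled Rag1KO on the left. Rag1KO replicate 7 has the highest value of all 3 receptors and of 6 markers, among them Sox10, Cdh19 and Erbb3, and Tfap2a is highest in WT replicate 6.

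WT replicate 6 had the highest Gfra1 and Bdnf levels and the lowest Gdnf, Ret and Ntrk3 levels. It was also the lowest line for 4 of 11 fibroblast and mesenchyme markers and for 5 of 8 smooth muscle and pericyte markers. The summed level of the smooth muscle list was 105898 to 539142 normalized counts in Rag1KO lines, and in WT lines it was 195892, 176639 and 15036, the last in replicate 6. The sum of the fibroblast and mesenchyme list was 1433540 to 2241670 normalized counts in Rag1KO lines, and 517520 in WT replicate 6 against 1579360 and 1968220 in the other WT lines. The fibroblast marker Thy1 was at 0.880 normalized counts and the smooth muscle marker Tagln at 2.64 in that line, while the mesenchymal gene Pdgfra was at 16592. Prrx1, Twist1 and Vim of the same list were at 28889.5, 1797 and 191379 in WT replicate 6, each within the range of the other 5 lines. The pericyte marker Cspg4 was highest in that line, at 6476, against 1018 or less in the other 5 lines. Of 12 neuron markers 6 were highest there, and their summed level was 19349 normalized counts, against 1022 to 4403 in the other 5 lines. Nefl and Nefm, at 10210 and 7903, made up most of that sum. Of the 6, Snap25 and Syp were at only 21.1 normalized counts each and Elavl4 at 6.16. Some neuron markers were higher in other lines. Tubb3 was at 462 in WT replicate 6, against 4090 in Rag1KO replicate 3, and Stmn2 was at 0 there, against 374 in Rag1KO replicate 7. Isl1, a transcription factor of sensory and motor neurons, was at 514 in WT replicate 6 and at 0 in the others. Skeletal muscle markers summed to 5396 normalized counts in WT replicate 6, mostly Chrna1 at 2948 and Pax3 at 2410, against 4.83 to 425 in the others. Of the 9 markers of that list, 6 were below 10 normalized counts in every line, among them Myod1, Myog and Pax7 at 0. Epithelium and keratinocyte markers summed to 10.6 in WT replicate 6 and to 1762 to 6337 in the others, and endothelium markers to 27.3 and to 208 or more. In those other lines the epithelium sum was mostly Krt19, at 1744 to 6287, and Epcam was at 0 in every line. Their endothelium sum was mostly Kdr and Tek, and Cldn5 was at 0 in every line. Lymphocyte markers summed to 3.88 normalized counts or less in every line. The part of these markers in the levels of Gdnf, Ret, Ntrk3, Gfra1 and Bdnf was not tested, and without WT replicate 6 the log2 fold change of Gfra1 was −2.51.

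Lists of 92 other genes of these pathways, in 10 groups by role, were examined in the same fit. Of the 71 tested, 0 passed an adjusted p of 0.05 in either direction by limma, with adjusted p-values from 0.850 to 0.997, and edgeR also called 0. Unadjusted p-values under 0.05 were found for 5 of them by each of limma, edgeR and DESeq2, to be read against the counts over all genes given above. Fitted differences were positive for 48 and negative for 23, with a median of 0.32. Over all genes tested they were positive for 8066 and negative for 8071, with a median of −0.0003. Without WT replicate 6, the named genes Sorcs2, Ptprz1 and Nradd turned negative (−0.47, −0.54 and −0.16), and Lingo1 turned positive (2.39). The signs over the whole lists were not counted without that line. Groups did not overlap for 9 of the 71, read against the 12.1% of all genes tested. For the 8 members tested the differences were positive for 5 and negative for 3, with a median of 1.13. Since this contrast chose the set, nothing is read from these counts. Of the positive ones, Gdnf and Ret came to −0.07 and 0.26 without WT replicate 6. Ngfr and Ntrk3 came to 0.47 and 0.88 without Rag1KO replicate 7, and Ncam1 stayed between 0.36 and 0.69.

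Among the other ligands, 2 of 4 GDNF family genes were tested. Artn, which encodes artemin, had 4.79, 64.9 and 20.3 normalized counts in the Rag1KO lines and 0, 53.1 and 0 in the WT lines (log2 fold change 2.41, SE 1.83, limma adjusted p = 0.850). Gdf15, the ligand of the brainstem receptor GFRAL, had 468, 693 and 16.5 in the Rag1KO lines and 9.06, 126 and 153 in the WT lines (1.61, SE 1.76, limma adjusted p = 0.861), and its receptor gene Gfral had 0 reads in every line. Neurturin (Nrtn) and persephin (Pspn), the ligands of GFRα2 and GFRα4, had 3 reads or fewer in every line. Ntf5, which encodes neurotrophin-4, was at 33.5, 104 and 36.8 in the Rag1KO lines and at 10.1, 43.5 and 0.880 in the WT lines (2.41, SE 1.23, limma adjusted p = 0.850). Without WT replicate 2 the log2 fold change of Gdf15 was 0.35, and without WT replicate 6 that of Ntf5 was 1.22. For Artn, edgeR gave 0.76.

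The other co-receptors overlapped between the groups too. Gfra4, the persephin receptor, had 143, 231 and 227 normalized counts in the Rag1KO lines and 54.4, 234 and 9.68 in the WT lines, with a log2 fold change of 1.92 (SE 1.12, limma adjusted p = 0.850), or 0.79 without WT replicate 6. Gas1, a GPI-anchored relative of the GFRα receptors, ranged from 5046 to 20849 in Rag1KO lines and from 3702 to 12407 in WT lines. Sdc3, a heparan sulphate proteoglycan that binds GDNF, ranged from 9071 to 27842 in Rag1KO lines and from 7377 to 12227 in WT lines. The p75 homologue Nradd differed little, from 1772 to 2549 in Rag1KO lines and from 1665 to 2679 in WT lines (0.01, SE 0.25, limma adjusted p = 0.997). Sortilin (Sort1), the partner of p75 for proneurotrophins, was at 328 to 810 in Rag1KO lines and at 266 to 1228 in WT lines. Its relative Sorcs2 spanned 404 to 4777 in Rag1KO lines and 8.80 to 3336 in WT lines, and Sorl1 spanned 53.3 to 278 in Rag1KO lines and 1.76 to 202 in WT lines, both lowest in WT replicate 6. Lingo1, a partner of p75 in the Nogo receptor complex, was at 10807.5 normalized counts in WT replicate 6 and at 323 or less in the other 5 lines. Its log2 fold change was −0.31 (SE 2.55, limma adjusted p = 0.986) with all 6 lines and 2.39 without WT replicate 6. The Nogo receptor gene Rtn4r, of the same complex, was at 363, 328 and 175 normalized counts in the Rag1KO lines and at 79.6, 314 and 1.76 in the WT lines, and had a log2 fold change of 2.75 (SE 1.72, limma adjusted p = 0.850), or 0.80 without WT replicate 6 and 1.14 with edgeR.

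Genes upstream and downstream of the receptors gave the same count of 0 called by limma in each of the 6 remaining lists. Of the proprotein convertases, which cleave proneurotrophins, Pcsk5 was at 487, 677 and 155 normalized counts in the Rag1KO lines and at 311, 0 and 0 in the WT lines (log2 fold change 5.78, SE 2.35, limma adjusted p = 0.850). Pcsk6 was at 1972, 5096 and 1282 in the Rag1KO lines and at 76.5, 3021 and 0 in the WT lines (5.25, SE 2.79, limma adjusted p = 0.850). On the recovered reads edgeR gave 2.10 for Pcsk5 and 1.44 for Pcsk6, and without WT replicate 6 limma gave 4.40 for Pcsk5 and 2.28 for Pcsk6. The largest difference among 22 adaptor genes of RET and the Trk receptors was that of Dok5, a docking protein that binds RET. It had 13.4, 356 and 41.7 normalized counts in the Rag1KO lines and 7.05, 0 and 0 in the WT lines, groups that did not overlap (4.91, SE 1.45, limma adjusted p = 0.850). Dok2, of the same family, was at 19.7 to 32.6 in Rag1KO lines and at 9.66 to 11.4 in WT lines (1.26, SE 0.46, limma adjusted p = 0.850). Smaller differences with separated groups were found for a pair of proteins that bind p75. Traf6 was at 1276 to 1447 normalized counts in Rag1KO lines and at 1555 to 1984 in WT lines, and Ripk2 at 1313 to 1666 in Rag1KO lines and at 987 to 1218 in WT lines.

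Cxcr4, a chemokine receptor on the list of response genes, had 1.92, 3.48 and 3.88 normalized counts in the Rag1KO lines, against 82.6, 26.1 and 1675 in the WT lines. At most 4 reads were counted in any Rag1KO line and at least 27 in each WT line, and WT replicate 6 was 20.3-fold above the next line. limma gave a log2 fold change of −5.29 (SE 1.52, adjusted p = 0.850), edgeR an adjusted p of 0.891, and DESeq2 a log2 fold change of −7.58 (SE 1.42, adjusted p = 0.000129). This DESeq2 call was the only one among the pathway genes by any of the 3 tests. DESeq2 gave an adjusted p to 69 of the 71 pathway genes, and none to Lingo1 and Nrcam. Without WT replicate 6 the limma value of Cxcr4 was −3.57. Vgf, a secreted peptide precursor of neurons and endocrine cells, was at 14.4, 260 and 49.4 in the Rag1KO lines and at 14.1, 11.6 and 4.40 in the WT lines (2.54, SE 1.12, limma adjusted p = 0.850). Of the adhesion molecules related to NCAM, L1cam was at 54.5 to 422 normalized counts in Rag1KO lines and at 0 to 142 in WT lines. Nrcam was at 64.2 to 330 in Rag1KO lines and at 66.5, 13.5 and 2474 in WT lines. Pleiotrophin (Ptn), a heparin-binding growth factor, had 127081, 146325 and 133035 normalized counts in the Rag1KO lines and 65403, 97361 and 508 in the WT lines. The groups did not overlap, and the log2 fold change was 3.19 (SE 2.0, limma adjusted p = 0.850) with all lines and 0.76 without WT replicate 6. Its receptor gene Ptprz1 was at 107 to 1710 in Rag1KO lines and at 0 to 981 in WT lines.

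**Figure D5:**
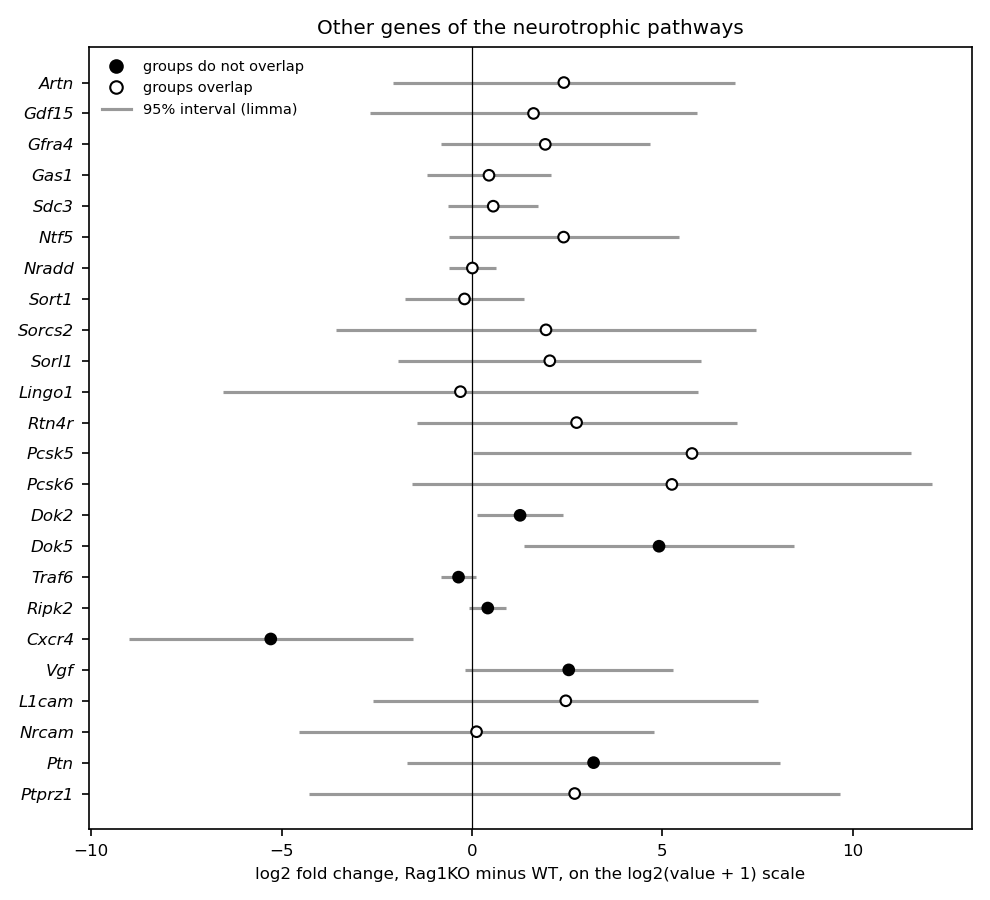
Log2 fold change of Rag1KO minus WT, on the log2(value + 1) scale, with its 95% interval from limma, for the 24 tested genes of the pathway lists that are named in the text. Filled points mark genes whose groups do not overlap and open points those whose groups overlap; 0 of the genes passed an adjusted p of 0.05 by limma, and Cxcr4 has the lowest value, −5.29.

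The genes whose levels followed a member most closely over the 6 lines were ranked by Pearson's r of log2(value + 1) among the 16137 genes tested, as a description of these libraries. For Gfra1 they were Lrpprc (r = 0.994), Cluh (0.992), Tmem192 (0.991), Ssb (0.988) and Lgals8 (0.986). Their ranges were narrow, with Lrpprc at 3214 to 4215 normalized counts in Rag1KO lines and at 5184 to 6816 in WT lines. The split by group is built in, since these genes were picked for following Gfra1. For Gdnf they were Sertad4 (0.999) and Pdgfd (0.998), a growth factor gene with 4626, 2483 and 1323 normalized counts in Rag1KO replicates 1, 3 and 7 and 4834, 1401 and 1.76 in WT replicates 2, 4 and 6. For Ret they were Rpusd3 (0.996) and Slc6a7 (0.993), of which Slc6a7 was at 0.880 in WT replicate 6. For Ntrk3 they were Morf4l2 (0.996) and Il11ra2 (0.990), for Ngfr Unc119b (0.995) and Anapc4 (0.991), and for Gfra2 Idh2 (0.972) and Eif4enif1 (0.959). For Bdnf they were Map1s (0.990) and Btbd11 (0.987), and for Ncam1 Tst (0.980) and Lca5l (0.974). Each r rests on 6 points, of which WT replicate 6 or Rag1KO replicate 7 is often the most extreme.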

How the data were processed

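RNA sequencing libraries of 6 cell lines were made with a TruSeq Stranded kit, per the labels' protocols. The submitters' processing notes give the mm10 build, STAR 2.7.9a and Trim Galore 0.6.6, besides DESeq2 and FastQC, with no role for each. The read counter, its use of strand and the annotation are not given in the sources used here. The deposited values are a signal per gene, whole reads divided by 1 size factor per library: 100% of values came out whole within 0.01 reads. The antisense genes that overlap exons of Gfra1, Bdnf and Ncam1 were at 19.7 normalized counts or less, and 2090 listed IDs had no gene name. Coordinates and exon lengths are from GENCODE M21, which held 55141 of the 55401 IDs, 54349 in the same version. Levels per kilobase use all annotated exons of a gene, whether or not these cells use them.

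After edgeR's filterByExpr on the recovered reads (16137 genes kept), log2(value + 1) was modelled in limma 3.58.1 with its trend option, two-sided, with Benjamini-Hochberg adjustment over all of them and a threshold of 0.05. Alternatives were edgeR 4.0.16 (TMM) and DESeq2 1.42.0 on the recovered reads, a pseudocount of 0.1, no filter, TMM and library-size scaling, and each library left out. Calculations used R 4.3.3 and Python 3.11.15, and the fits were tested on simulated data. Replicate pairs differed far beyond sampling noise.

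The members, gene lists and marker lists were chosen with earlier results of these data known. Named are all members, other ligands and receptors that reached 10 normalized counts, the 2 genes of lowest p in each other list, and the genes most like each member (5 for Gfra1, 2 for each other). Genes at low levels that are named beside their receptor or ligand, and single markers, were chosen after their values were seen. Some genes of the lists are not reported here and were left out of the counts and sums of these lists.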

Additional observations from a re-analysis of the deposited data

How the results depend on the processing

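With each library left out in turn limma called 0 to 5 genes of all those tested, against 1 with all 6, and the 5 were called without WT replicate 6. edgeR called 0 and DESeq2 65 genes, and DESeq2 called 1 pathway gene, Cxcr4 (log2 fold change −7.58), against 0 by limma, edgeR and every fit with a library left out. The cause was not tested. All 48 values of the members' fold changes under other settings moved by less than 1 SD of the replicates, which is wide for every member but Gfra1 and Ncam1. So did all 48 with a library left out, but that outcome was fixed in advance. Leaving 1 library out of a group of 3 cannot move a difference by 1 such SD, so nothing is read from that count. Dropping the filter cannot change a fold change either, so the values of that setting repeat the main fit, for members and pathway genes alike. By sign, Gfra2 (−0.04) turned with edgeR and DESeq2 (1.63 with both) and without Rag1KO replicate 1 (0.37), Rag1KO replicate 3 (1.51) or WT replicate 4 (0.95). Bdnf (−0.28) came to 0.12 when Rag1KO replicate 7 was left out, to 0.18 for WT replicate 2 and to 0.28 for WT replicate 6, and Gdnf (2.14) to −0.07 for the last. Gfra1, Ret, Ncam1, Ngfr and Ntrk3 kept their sign in all of these. For Gfra1, whose contrast chose the set and whose groups did not overlap, leaving out a library could not turn the sign. Nothing is read from that. For the named pathway genes, 141 of 144 values under other settings and 131 of 144 with a library left out kept their direction and call. Lingo1 and Nrcam had no adjusted p from DESeq2, which was counted as no call. With edgeR and DESeq2 the sign turned for Nrcam (−2.24 with both). With each library left out, log2 fold changes ran from −0.15 to 0.88 for Gas1, −0.16 to 0.19 for Nradd, −0.74 to 0.36 for Sort1, −0.47 to 3.74 for Sorcs2, −2.93 to 2.39 for Lingo1, −1.49 to 2.22 for Nrcam and −0.54 to 4.43 for Ptprz1. Those of Sorcs2 and Ptprz1 turned only without WT replicate 6. No paired analysis was possible because the groups share no replicate numbers. Depth limits what can be said of Ntrk2, Ntf3, Nrtn and Pspn, which had 3 reads or fewer in every library.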
